A study of Rattus norvegicus with 4 samples.

Results

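The ErbB receptors and the growth factors that bind them were examined in unmodified S16 cells, an immortalized line of rat Schwann cells. The 10 gene symbols were chosen for their known roles and looked up among the 30708 genes listed for each library, and all 10 were listed. They are the 4 receptor genes Egfr, Erbb2, Erbb3 and Erbb4 and the 6 ligand genes Nrg1, Nrg2, Nrg3, Nrg4, Hbegf and Btc. Poly(A) RNA from 2 populations was sequenced, one at passage 9, from which the cells carrying the rSOX-4 deletion had been derived, and one at passage 39. Neither population carried that deletion or received a treatment. The labels call the cells myelinating Schwann cells, but the cells were grown in a flask as a line, with no axons. The labels give each population 2 libraries, called technical replicates, so the design holds 1 population per passage and allows no test of passage.

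ErbB receptors are tyrosine kinases of the cell surface that act in pairs. The neuregulins bind ERBB3 and ERBB4, whereas ERBB2 has no known ligand of its own and serves as a partner. ERBB3 in turn has a weak kinase, so that a pair of ERBB2 and ERBB3 combines ligand binding with kinase activity. In nerve, NRG1 on the axon acts through this pair on Schwann cell survival, division, migration and myelination. EGFR binds a further set of ligands, among them HB-EGF and betacellulin, and both of these also bind ERBB4.

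Levels are given in RPKM, a read count divided by gene length in kilobases and by the library total in units of 1000000. Gene length is thus divided out, but how lengths were set is not given and only uniquely mapped reads were kept. Ratios between genes therefore hold for the listed values, and their intervals leave such errors out. The median log2 difference, technical replicates 2 minus 1, also varied with length. It was 0.23 for genes as long as Nrg4 and -0.10 for those as long as Nrg1. The library totals behind the RPKM values, recovered from the values themselves, lay between 34.2 and 41.4 M reads (M, 1000000), and each 95% interval is exact and covers counting error only. The study's methods give a lower yield of reads per cell line than these totals, which was not resolved, and fewer reads would widen every interval. Libraries with the same technical replicate number were the most alike across passages, with an SD of the log2 differences over genes of 0.0796 and 0.0823, against 0.331 to 0.342 for the other pairs of libraries. The library labels thus go against the grouping of the values, and the results on the ErbB genes are given by passage and by replicate number. The labels do not say whether a number stands for a sequencing lane, a library preparation or another batch. The study's methods state that technical replicates were pooled and sequenced over 2 lanes, but tie no number to a lane. A lane, a preparation, another batch and an exchange of labels cannot be told apart. Each SD over the 2 populations below averages a library of each number and leaves that difference out. All 8 Schwann cell markers examined were at 1 RPKM or more, among them S100b, which encodes a calcium-binding protein of Schwann cells, at 59.2 ± 0.653 RPKM (SD, n = 2 populations). Of the markers of other cell types, 3 of 5 fibroblast genes reached 1 RPKM, with Col1a1 at 3588 ± 32.3 RPKM and Dcn and Lum below 1 RPKM, as did 1 of 5 neuron genes, 1 of 4 melanocyte genes, 1 of 4 epithelial genes and 1 of 5 macrophage and endothelial genes. Those single genes were Nefl, Pmel, Krt14 and Cd68, in this order, with means of 8.72 RPKM for Pmel and 4.44 RPKM for Krt14. The pan-leukocyte gene Ptprc, the endothelial gene Cdh5 and the melanocyte gene Tyr were listed at 0 in every library. A listed 0 is not read as absence, for the reason given with Egfr below.

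Of the 10 genes, 5 were at 1 RPKM or more in both populations, namely the receptors Erbb3, Erbb2 and Erbb4 and the ligands Hbegf and Nrg1. Over all genes listed, 10964 met the same criterion. The remaining receptor and the 4 remaining ligands had between 0 and 12 reads in any library. The log2 levels of all 10 genes in the 4 libraries are plotted together.

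**Figure D1:**
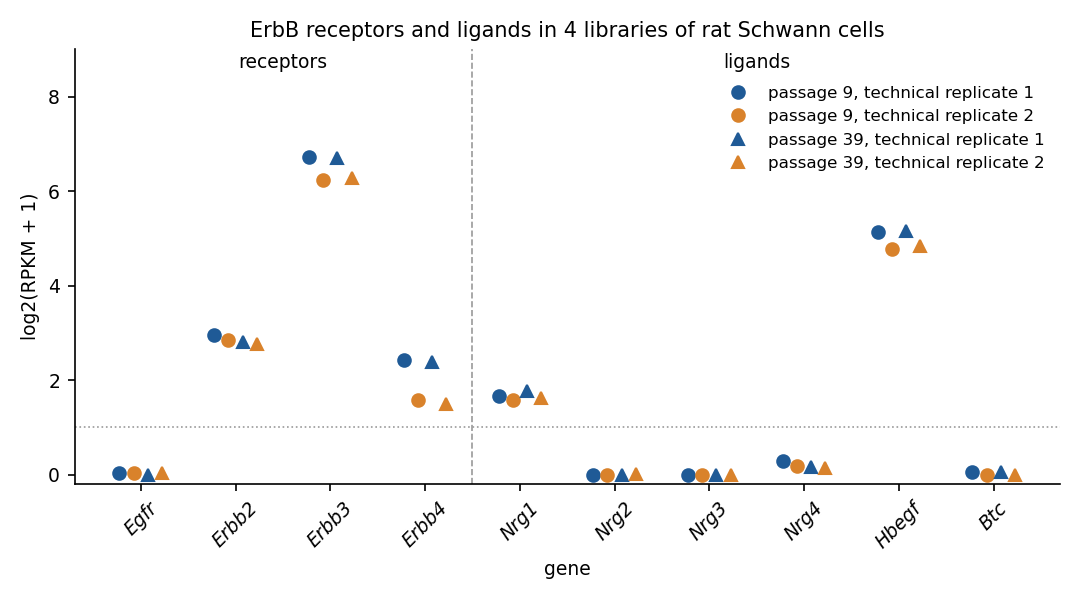
Level of the 4 receptor genes and 6 ligand genes as log2(RPKM + 1) in each of the 4 libraries, with circles for passage 9, triangles for passage 39, blue for technical replicate 1 and orange for technical replicate 2; the dotted line lies at 1 RPKM. Erbb3 and Hbegf stood highest in their groups. In Erbb3, Erbb4, Hbegf, Nrg1 and Btc both orange points lay below both blue points, by a small distance in Nrg1 and from few reads in Btc.

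Erbb3, which encodes the kinase-impaired neuregulin receptor, was the most abundant of the 10 transcripts. It was at 104 RPKM (95% interval 102.6 to 105.0) in technical replicate 1 and 74.6 RPKM (73.5 to 75.8) in technical replicate 2 of passage 9. At passage 39 it was at 102 RPKM (100.9 to 103.6) in technical replicate 1 and 76.2 RPKM (75.2 to 77.3) in technical replicate 2. The libraries numbered 1 were high and those numbered 2 low in both passages, and the passages themselves overlapped. The mean was 89.2 ± 0.0154 RPKM (SD, n = 2 populations), which placed Erbb3 at rank 686 of all genes listed, and its rank in single libraries ran from 501 to 928. The SD over populations does not describe the spread between libraries, since each population mean averages a high and a low one.

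Erbb2, which encodes the partner kinase without a ligand, was the second receptor by level. It was at 6.79 RPKM (6.43 to 7.17) and 6.15 RPKM (5.78 to 6.54) in technical replicates 1 and 2 of passage 9, and at 6.01 RPKM (5.64 to 6.40) and 5.81 RPKM (5.47 to 6.16) in those of passage 39. The highest of the 4 libraries was technical replicate 1 of passage 9, and the intervals of the other 3 overlapped each other. The mean was 6.19 ± 0.400 RPKM (SD, n = 2 populations), at rank 7458 of all genes listed. RPKM of Erbb3 thus exceeded RPKM of Erbb2 by 15.3-fold (14.5 to 16.2) and 12.1-fold (11.4 to 12.9) in technical replicates 1 and 2 of passage 9. At passage 39 the same ratio was 17.0-fold (16.0 to 18.2) and 13.1-fold (12.4 to 13.9). The mRNAs of both chains of the Schwann cell neuregulin receptor were therefore present in every library, at levels more than 10-fold apart.

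Erbb4 encodes a receptor that combines neuregulin binding with an active kinase. It was at 4.37 RPKM (4.05 to 4.71) and 1.98 RPKM (1.75 to 2.24) in technical replicates 1 and 2 of passage 9, from 686 and 264 reads. At passage 39 it was at 4.25 RPKM (3.90 to 4.62) and 1.82 RPKM (1.62 to 2.05), from 552 and 284 reads. The 2 libraries numbered 1 lay well above the 2 numbered 2, with no overlap of intervals. Its mean was 3.10 ± 0.0996 RPKM (SD, n = 2 populations). Erbb2 exceeded Erbb4 in every library, by 1.56-fold and 1.42-fold in technical replicates 1 of passages 9 and 39, and by 3.10-fold and 3.19-fold in technical replicates 2.

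Egfr, the receptor for EGF and TGF-alpha, was near the limit of the depth. It had 3 and 4 reads in the libraries of passage 9 and 0 and 4 reads in those of passage 39, each pair in the order of its replicate number, or 0.0183, 0.0287, 0 and 0.0245 RPKM. In the library where it was listed at 0, 3 reads would have been 0.0221 RPKM. A value of 0 is read here only as a gene listed at 0, since Rps6 and Rplp2, which encode ribosomal proteins of every cell, were also listed at 0 in every library.

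Hbegf, which encodes the heparin-binding ligand of EGFR and ERBB4, was the most abundant ligand transcript of the 6. It was at 33.9 RPKM (32.4 to 35.3) and 26.3 RPKM (25.0 to 27.7) in technical replicates 1 and 2 of passage 9, and at 34.8 RPKM (33.2 to 36.4) and 27.4 RPKM (26.1 to 28.7) in those of passage 39. Both libraries numbered 1 were high and both numbered 2 were low. The mean was 30.6 ± 0.722 RPKM (SD, n = 2 populations), at rank 2387. RPKM of Hbegf exceeded that of Erbb2 by 4.27-fold to 5.79-fold over the 4 libraries and stayed below that of Erbb3, which exceeded it by 2.78-fold to 3.07-fold.

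Nrg1, the axonal ligand of Schwann cell ERBB3, was the only neuregulin at 1 RPKM or more in these libraries. It was at 2.18, 2.01, 2.38 and 2.09 RPKM in the same order of libraries, from 609, 476, 552 and 582 reads. Its levels were close together in the 4 libraries, with a mean of 2.16 ± 0.105 RPKM (SD, n = 2 populations). The listed values give 1 level per gene symbol, so the NRG1 isoforms, which differ in whether they are tethered to the membrane, were not resolved. Hbegf exceeded Nrg1 by 13.1-fold to 15.6-fold. Erbb4 and Nrg1 were neighbours in the order of levels, and their order was not fixed. Erbb4 was 2.01-fold (1.80 to 2.24) and 1.78-fold (1.58 to 2.01) above Nrg1 in technical replicates 1 of passages 9 and 39. In technical replicates 2 the ratio was 0.989 (0.847 to 1.15) and 0.870 (0.752 to 1.004), and the order could not be told at this depth.

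The other ligand genes were at or near 0. Nrg4, a neuregulin that binds ERBB4, was at 0.224, 0.132, 0.113 and 0.0940 RPKM in the same order of libraries, from 12, 6, 5 and 5 reads, with a mean of 0.141 ± 0.0528 RPKM (SD, n = 2 populations). Btc, which encodes betacellulin, had 2 reads in each technical replicate 1 and was listed at 0 in each technical replicate 2, where 3 reads would have been 0.0656 RPKM at passage 9 and 0.0560 RPKM at passage 39. Nrg2 had 1 read, in technical replicate 2 of passage 39. Nrg3, another ligand of ERBB4, was listed at 0 in every library.

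Set against each other, the 4 receptor transcripts together outweighed those of the 6 ligands. The summed level of the 4 receptors was 115.0, 82.8, 112 and 83.9 RPKM in the same order of libraries, and that of the 6 ligands was 36.3, 28.4, 37.3 and 29.6 RPKM. Both sums were higher in the libraries numbered 1. Their ratio was 3.17, 2.91, 3.01 and 2.83, with a mean of 2.99 ± 0.0858 (SD, n = 2 populations). Each sum was largely 1 gene. Erbb3 made up 90.1% to 90.9% of the receptor sum and Hbegf 92.5% to 93.3% of the ligand sum over the 4 libraries. Erbb2 made up 5.34% to 7.43% of the receptor sum. The share of Erbb4 was 3.80% and 3.78% in technical replicates 1 of passages 9 and 39 and 2.39% and 2.17% in technical replicates 2. Without Hbegf, the ligand sum was only 2.14 to 2.54 RPKM, so the ratio of receptors to ligands rests on the level of 1 ligand that binds other receptors than ERBB3. It rests as well on which ligands are counted. With the 5 other ligands of the EGF family described further on, chiefly Tgfa, the ratio of receptors to 11 ligands was 1.43, 1.03, 1.37 and 1.02 in the same order of libraries, with a mean of 1.21 ± 0.0238 (SD, n = 2 populations).

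**Figure D2:**
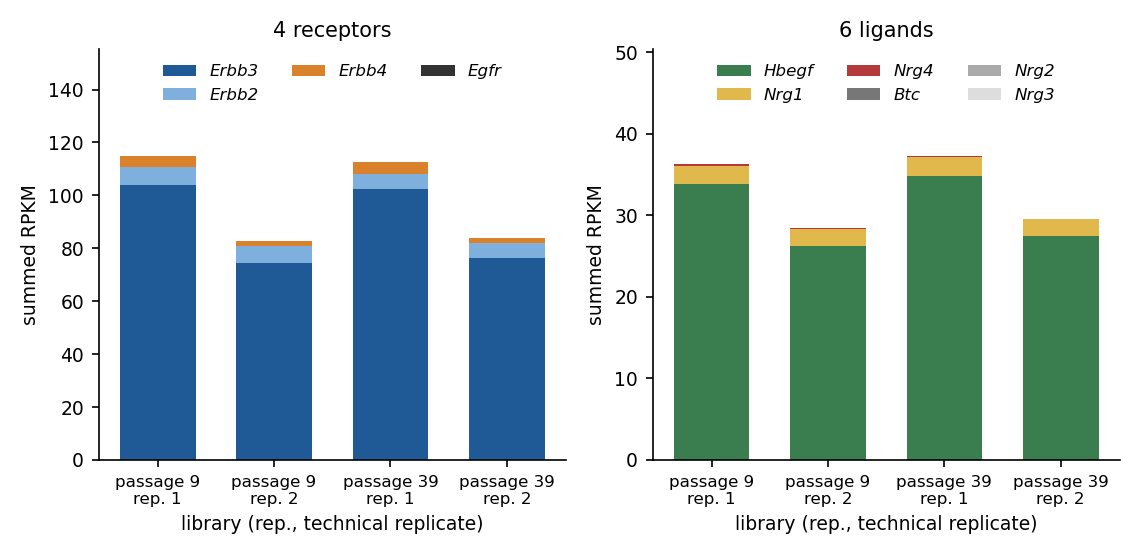
Summed RPKM of the 4 receptors and of the 6 ligands in each of the 4 libraries, as stacked bars that start at 0 and are divided by gene. Erbb3 filled at least 90.1% of each receptor bar and Hbegf at least 92.5% of each ligand bar, and both bars were shorter in technical replicates 2.

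Between passages, the 5 detected genes differed little. The difference of log2(mean RPKM + 1), passage 39 minus passage 9, was 0.00035 for Erbb3, -0.11 for Erbb2, -0.05 for Erbb4, 0.07 for Nrg1 and 0.05 for Hbegf. None of these 5 genes differed by 2-fold, where 1 of 11025 genes whose mean reached 1 RPKM did (0.00907%). The undetected ErbB genes lay below 1 RPKM in every library and could not reach 2-fold on this scale. On this scale the change of low genes is understated. In RPKM, Erbb2 at passage 39 was 0.885 (0.814 to 0.962) of its level at passage 9 in technical replicates 1 and 0.944 (0.866 to 1.03) in technical replicates 2. Its fall thus exceeded counting error in the libraries numbered 1, as did a change in either direction for 5.9% of the 13584 genes with enough reads, and not in those numbered 2. Erbb3 stood at 0.985 (0.968 to 1.003) of its passage 9 level in technical replicates 1 and at 1.02 (1.0007 to 1.04) in technical replicates 2, where 7.97% of 13495 genes had an interval that left out 1. No gene of the 5 was off 1 in the same direction in both numbers, against 52 of 13205 genes (0.394%). The intervals of Erbb4, Nrg1 and Hbegf covered 1 in both numbers. These intervals compare libraries, and with 1 population per passage the spread between populations of the same passage is unknown. In RNA from a whole flask, fewer cells of a kind and less RNA per cell cannot be told apart.

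Between replicate numbers, 3 of the 5 detected genes differed by more than counting error in both passages. Erbb4 in technical replicate 2 was 0.454 (0.392 to 0.524) of its level in technical replicate 1 at passage 9 and 0.429 (0.370 to 0.496) at passage 39, which is 2.20-fold and 2.33-fold lower. Erbb3 was 0.719 (0.705 to 0.733) and 0.746 (0.732 to 0.760) of its level in technical replicate 1 at passages 9 and 39. Hbegf was 0.777 (0.726 to 0.831) and 0.788 (0.738 to 0.842). Erbb2, the signalling partner of Erbb3, was 0.906 (0.834 to 0.984) at passage 9 and 0.966 (0.886 to 1.05) at passage 39. The fall of Erbb3 was larger than that of Erbb2, since the intervals of their ratio given above did not overlap between the numbers in either passage. Nrg1 was 0.922 (0.816 to 1.04) at passage 9 and 0.879 (0.781 to 0.989) at passage 39, so for Erbb2 and for Nrg1 the interval left out 1 in a single passage. Over all genes with at least 20 reads in each pair of libraries, the second library was below the first in both passages for 2721 of 13376 genes (20.3%) and above it for 4777 (35.7%), and none of the 5 genes was above.

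**Figure D3:**
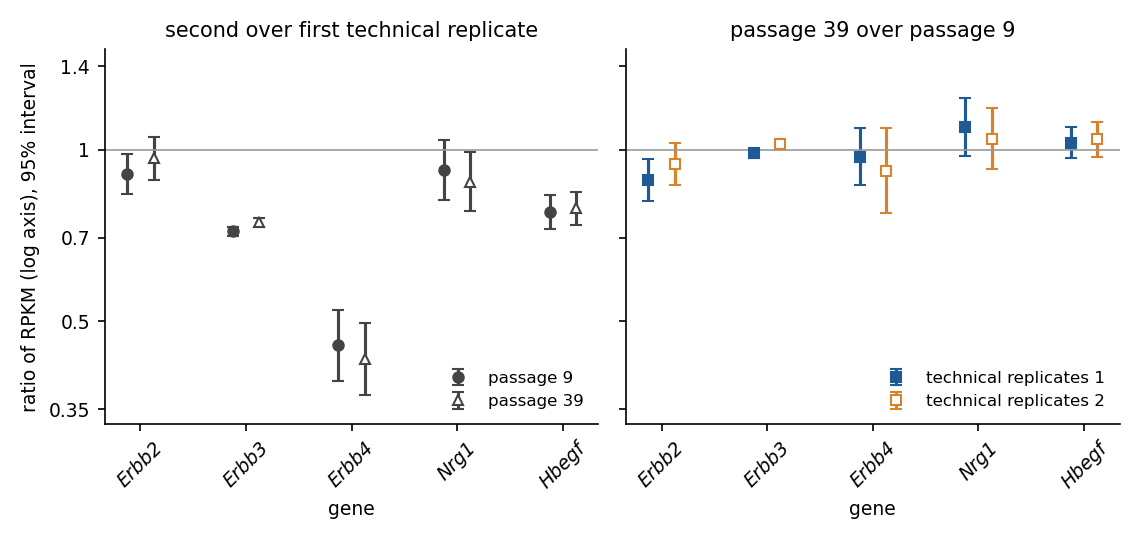
Ratio of RPKM in technical replicate 2 over technical replicate 1, within each passage, and of passage 39 over passage 9, within each replicate number, for the 5 detected genes on a log axis, with exact 95% intervals as bars. Erbb4, Erbb3 and Hbegf lay below 1 by replicate number in both passages, whereas the ratios by passage lay between 0.885 for Erbb2 and 1.10 for Nrg1.

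The split of genes moved with the scaling of the libraries. Scaled to a common sum, 31.1% of genes were lower and 19.8% higher in technical replicates 2, and scaled by the median ratio 28.2% were lower and 22.9% higher. The median log2 difference of all genes was 0.10 as listed, -0.03 with a common sum and 0.0054 with the median ratio. Under both of these scalings all 5 detected genes were lower in technical replicates 2 beyond counting error in both passages, Erbb2 and Nrg1 included. The direction of Erbb3, Erbb4 and Hbegf was the same under all 3 scalings.

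On the log2(RPKM + 1) scale, the difference between replicate numbers, second minus first, was -0.87 for Erbb4, -0.44 for Erbb3, -0.34 for Hbegf, -0.10 for Nrg1 and -0.08 for Erbb2. The median of the 5 was -0.34, beside 0.10 for the 11025 genes tested. None of the 5 passed 2-fold on this scale, against 120 of 11025 genes (1.09%), although Erbb4 passed 2-fold in RPKM. With a pseudocount of 0.1 RPKM in place of 1 its difference was -1.14. Erbb4 stood at rank 129 from the lowest, with 1.16% of genes below it, where 5.72% of genes lay below Erbb3 and 9.17% below Hbegf. Genes as long as Erbb4, with a recovered length of 3795 bp, had a median difference of 0.06, against which Erbb4 was at -0.93. Among genes as long as Hbegf, of 1549 bp, the median was 0.21, and Hbegf was at -0.55 relative to it. Nrg1, of 6764 bp, was at the median of genes of its length. The Schwann cell markers went both ways. In the values as listed, 5 of 8 were below the first library beyond counting error in both passages. The other 3, Sox10, Pmp22 and Egr2, were above it. Over all genes with enough reads these shares were 20.3% and 35.7%. S100b differed by -1.39 on the log2 scale. The summed fibroblast markers were at 3432 and 3445 RPKM in technical replicates 1 of passages 9 and 39 and at 3933 and 3826 RPKM in technical replicates 2, nearly all of it Col1a1, whereas Col3a1 of the same list was at 82.8 and 81.9 RPKM and at 50.3 and 48.5 RPKM. Over the same libraries the summed neuron markers, nearly all Nefl, were at 112 and 116 RPKM and at 74.6 and 72.7 RPKM. Their part in the differences of the ErbB genes was not tested.

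**Figure D4:**
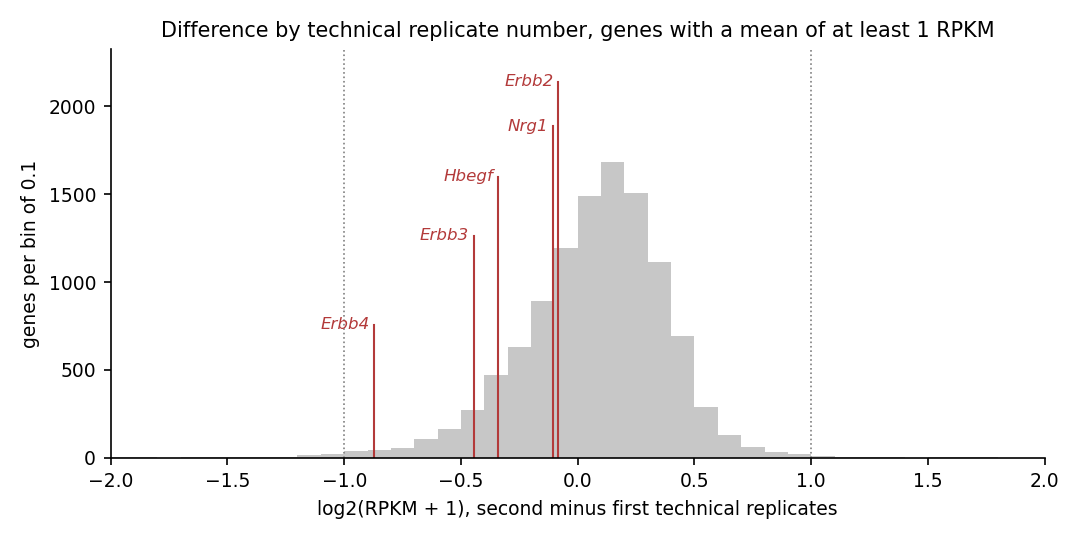
Distribution over 11025 genes, each averaging 1 RPKM or more, of the difference of log2(RPKM + 1), technical replicates 2 minus 1, within the range from -2 to 2, with the 5 detected genes marked by red lines whose height has no meaning, and dotted lines at a 2-fold difference. Erbb4 lay at -0.87 in the lower tail, and the median of all genes lay at 0.10.

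The promoters of genes that differed between replicate numbers, Erbb4 and Hbegf, are shown beside that of Erbb2. Erbb2 differed less, though beyond counting error in both passages under both other scalings. No link between these sequences and the differences between libraries was tested. RefSeq promoters on the assembly GRCr8, from 250 bases before to 50 bases after the start site, were found for 8 of the 10 genes, and Erbb3 and Nrg1 had no entry. This assembly is another build than the rn5 genome behind the expression values. SOX10, the lineage factor of Schwann cells that the study searched for, binds short sequences, and its core letters were looked for on both strands, overlapping matches included, as ACAAA, as ACACA, as ACAAT or as ACAAG. Capitals mark a match, read on the strand of the gene. Erbb4 lies at chr9:78045557-78045856 on the minus strand, Hbegf at chr18:28390171-28390470 on the minus strand and Erbb2 at chr10:83907351-83907650 on the plus strand.
Erbb4: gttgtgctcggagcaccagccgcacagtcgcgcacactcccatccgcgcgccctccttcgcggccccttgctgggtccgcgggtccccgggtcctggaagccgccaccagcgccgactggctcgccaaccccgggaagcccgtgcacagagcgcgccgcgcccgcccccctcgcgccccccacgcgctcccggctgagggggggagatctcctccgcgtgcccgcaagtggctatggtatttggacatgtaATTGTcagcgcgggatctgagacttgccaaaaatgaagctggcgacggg
Hbegf: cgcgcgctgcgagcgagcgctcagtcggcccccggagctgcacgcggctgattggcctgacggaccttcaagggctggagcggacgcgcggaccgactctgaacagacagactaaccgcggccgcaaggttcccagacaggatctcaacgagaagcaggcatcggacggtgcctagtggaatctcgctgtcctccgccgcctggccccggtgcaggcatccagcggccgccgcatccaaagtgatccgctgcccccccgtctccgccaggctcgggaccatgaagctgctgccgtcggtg
Erbb2: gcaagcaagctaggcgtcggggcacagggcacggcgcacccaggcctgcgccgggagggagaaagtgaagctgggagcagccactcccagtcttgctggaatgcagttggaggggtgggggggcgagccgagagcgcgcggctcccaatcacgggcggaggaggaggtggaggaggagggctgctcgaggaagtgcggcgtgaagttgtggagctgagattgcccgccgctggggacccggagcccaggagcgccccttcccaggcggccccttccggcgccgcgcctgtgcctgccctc
The Erbb4 promoter held 1 match, ATTGT, which is ACAAT on the other strand, and those of Hbegf and Erbb2 held none. Of the promoters not printed, Btc held 2 matches, Egfr and Nrg4 held 1 each, and Nrg2 and Nrg3 held none. Of all 33469 promoters of this length, 83.5% held at least 1 match, with a median of 2, so these short letters are common. The GC content was 70.3% for Erbb4, 68.7% for Hbegf and 71.3% for Erbb2, where the median promoter had 51.7%. The 3 sequences were thus alike in base composition, and the levels of the genes were not tested against it.

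Around the receptors, 55 further genes of the pathway were listed in 5 groups by role, of which 54 were found and 47 averaged 1 RPKM or more. None of these 47 differed by 2-fold between passages, and 1 did so between replicate numbers. Of the 50 with at least 20 reads in each pair of libraries, 15 (30%) were lower in technical replicates 2 beyond counting error in both passages and 17 (34%) were higher, beside 20.3% and 35.7% of all genes with enough reads. Like the split of all genes, these counts moved with the scaling, to 26 lower and 8 higher with a common sum and to 25 lower and 10 higher with the median ratio. The median difference by number of the 47 genes was 0.01, beside 0.10 for all genes tested.

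Among 5 other ligands of the EGF family, only Tgfa reached 1 RPKM. Tgfa, which encodes the EGFR ligand TGF-alpha, was at 44.0, 51.4, 44.9 and 51.6 RPKM in the same order of libraries. It was thus more abundant than Hbegf in every library and higher in technical replicates 2, opposite to Hbegf. Its ratio, second over first, was 1.17 and 1.15 at passages 9 and 39 as listed, and 1.04 to 1.08 under the other scalings. Areg, which encodes amphiregulin, was at 0.168, 0.868, 0.0508 and 0.996 RPKM, from 8, 35, 2 and 47 reads. It was likewise higher in technical replicates 2, by 5.16-fold (2.35 to 12.9) at passage 9 and 19.6-fold (5.13 to 166) at passage 39. As listed, 35.7% of all genes with enough reads were higher. Transcripts of EGFR ligands were therefore present while Egfr had at most 4 reads in a library.

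Of 7 genes that shed and process ErbB ligands, all were at 1 RPKM or more, with 3 lower and 1 higher in technical replicates 2 in the values as listed, to which the counts of the further groups also refer. Rhbdf1, which encodes an inactive rhomboid that guides the sheddase ADAM17, was at 50.1 ± 0.662 RPKM (SD, n = 2 populations). Bace2, a relative of the protease that cleaves NRG1, was at 47.5, 18.9, 46.2 and 19.4 RPKM in the same order of libraries. Its log2 difference between numbers, -1.25, passed 2-fold, and its libraries fell into the same high and low pairs as those of Erbb4.

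Of 14 adaptors that dock on activated receptors, 12 were at 1 RPKM or more, with 4 lower and 5 higher in technical replicates 2 among 13 with enough reads. Ptpn11, which encodes the phosphatase SHP2, was at 37.0 ± 0.291 RPKM and Gab1, a docking protein, at 34.1 ± 0.464 RPKM (SD, n = 2 populations). Of 10 listed genes of receptor turnover and inhibition, all were at 1 RPKM or more, with 4 lower and 1 higher. The ubiquitin ligase gene Nedd4 stood at 187 ± 2.23 RPKM and Stub1, which encodes the ligase CHIP, at 31.4 ± 0.969 RPKM. Of 18 downstream genes of kinases and calcineurin, 17 were at 1 RPKM or more, with 4 lower and 8 higher. Mapk3, which encodes the kinase ERK1, was at 136 ± 0.261 RPKM and Map2k2, its activating kinase, at 99.0 ± 3.16 RPKM. Beside these group counts, 20.3% of all genes with enough reads were lower and 35.7% higher as listed, and the pathway totals moved with the scaling as given above. The groups were not tested against each other. The log2 differences of all these groups are plotted by role.

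**Figure D5:**
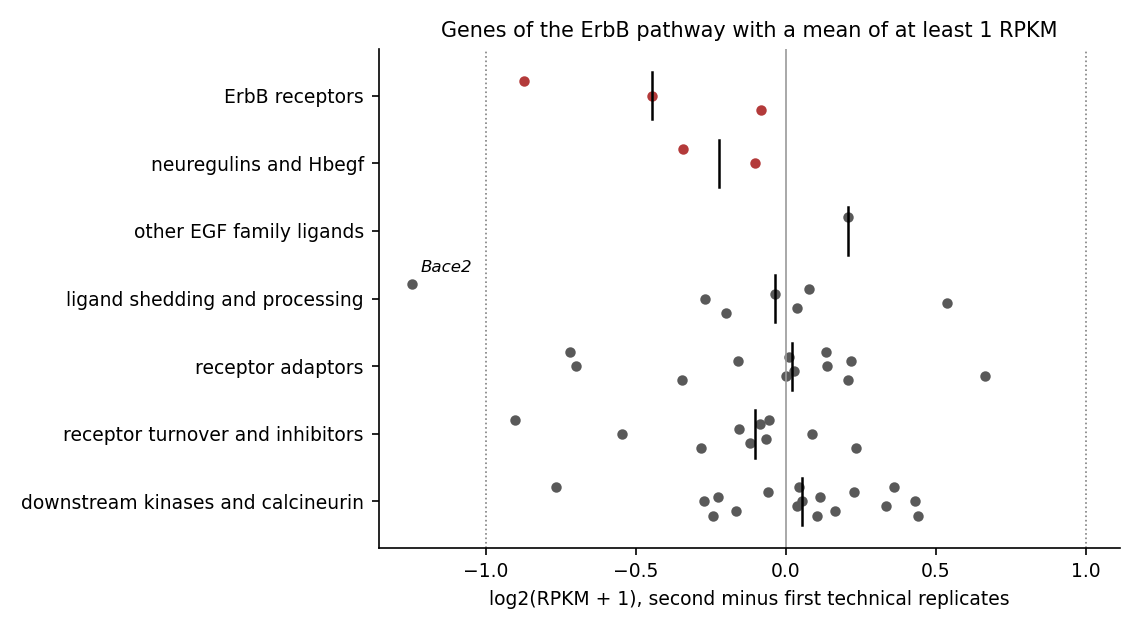
Difference of log2(RPKM + 1), technical replicates 2 minus 1, of each gene at 1 RPKM or more, 1 row per group (receptors and ligands in red, the 5 pathway groups in grey), with a black bar at each group's median, a line at 0 and dotted lines at a 2-fold difference. Bace2 at -1.25 was the only pathway gene past 2-fold, and Erbb4 at -0.87 came nearest among the receptors and ligands.

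The genes most like Erbb3 and Erbb2 over the 4 libraries were found by the Euclidean distance of log2(RPKM + 1), over all genes listed. For Erbb3 they were Lima1, Tacc1 and Kirrel, at distances of 0.16, 0.18 and 0.18. For Erbb2 they were LOC102551308, Golph3l and Topors, at 0.05, 0.07 and 0.10. The neighbours of Erbb3 shared its high level and its lower values in technical replicates 2, as Lima1 with 108, 80.4, 105 and 81.7 RPKM in the same order of libraries. With 4 libraries, in which the replicate number carries most of the variation, such likeness describes level and number only.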

How the data were processed

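Poly(A) RNA libraries of 50 bp single-end reads were made from 2 S16 populations. Per the study's methods and the submitters' processing notes, the authors checked reads with FastQC, aligned them to rn5 with STAR, kept uniquely mapped reads and counted them with HTSeq without strand; versions are not given in the sources used here. The deposited values are RPKM, 1 per gene symbol; how gene lengths were set is not given in the sources used here.

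From these RPKM values, population means, their SD over 2 populations and differences of log2(RPKM + 1) were computed with Python 3.11.15, numpy 2.4.6 and scipy 1.17.1, and plotted with matplotlib 3.10.9. A gene counted as detected at a mean of 1 RPKM in both populations. Library totals and whole reads (tolerance 1e-05 of a read) were recovered from ratios of values, a method tested on simulated data; reads are the smallest whole numbers that fit, so a common factor can stay hidden. Intervals of levels are Clopper-Pearson intervals, and those of ratios are exact conditional binomial intervals, for genes with at least 20 reads in a pair. Gene length was compared in 20 bins. Intervals and floors of 3 reads cover counting error only, since reads carried no molecular identifiers and several may come from 1 molecule.

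With 1 population per passage no p-value was computed. The genes and lists were chosen by known role, with earlier results of these data known. All 10 ErbB genes are named, as are the 2 most abundant genes of each pathway list, any list gene past 2-fold, and the 3 nearest genes to Erbb2 and Erbb3. Other marker genes and Areg were named after their values were seen, and some markers are not reported here. Other scalings, pseudocounts and minimums and each library left out were tried; the length correction, the scaling of read intervals and the wider set of ligands were added after seeing the data.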

Additional observations from a re-analysis of the deposited data

Results flagged for a closer look

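Erbb3 moved in opposite directions between passages in the 2 libraries of each number. It was 0.985 (0.968 to 1.003) of its passage 9 level in technical replicates 1 and 1.02 (1.0007 to 1.04) in technical replicates 2, and the log2 differences were 0.05 apart (0.052). That difference was not tested, and the first of the 2 intervals covers 1. Nrg2 was at 0 in 3 libraries and at 0.00794 RPKM in technical replicate 2 of passage 39, so its gap to the nearest library was the whole range (ratio 1). The value is 1 read, fewer than the 3 reads taken as the limit of the depth. Of the 9 ErbB genes with a value above 0 in some library, Nrg2 was the only one with such a gap. The usual rate of about 1 in 20 groups by chance does not apply here, since any gene with reads in a single library gives a ratio of 1.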

How the results depend on the processing

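With a minimum of 5 RPKM, 3 of the 10 ErbB genes counted as detected in place of 5. Among the ErbB genes at or above the minimum of each run, none was 2-fold different by passage under any alternative. Erbb4 passed 2-fold by replicate number with a common sum or a pseudocount of 0.1 RPKM, so the count rose from 0 to 1 in each. Over all genes, 325 and 251 were then 2-fold different by number in place of 120. The common sum raised all values, the mean of Erbb2 from 6.19 to 18.7, while the pseudocount and minimum stayed at 1. Its 2-fold counts thus come from a lower floor and a wider set of genes as well as from the scaling. By passage, 1 gene became 4 with a common sum and 0 with the minimum of 5 RPKM. Leaving out a library unbalances the numbers. That gave 9 to 26 genes by passage: 24 without technical replicate 1 and 9 without 2 of passage 9, and 26 and 13 without 1 and 2 of passage 39. The log2 ratio of Erbb3 to Erbb2 was 3.85, and 3.75 to 3.94 without a library. ErbB genes lower in technical replicates 2 beyond counting error went from 3 to 5 and 5 with a common sum and the median ratio. The percent of genes lower went from 20.3 to 31.1 and 28.2, and the percent higher from 35.7 to 19.8 and 22.9. Of the pathway genes, 26 and 25 were then lower in place of 15, and 8 and 10 higher in place of 17. The cause was not tested. With the replicate block, 121 genes were 2-fold different by number and 1 by passage, and the log2 ratio of receptors to ligands was 1.57 in place of 1.58. That ratio was 0.28 with the 5 other ligands, an alternative chosen after seeing the data. Same-numbered libraries deviated together (r = 0.943 over 11025 genes), although the labels give the number no shared source, and the block changed no call of the 10 ErbB genes. For the difference by number, a smaller pseudocount cannot change the sign, and both scalings lowered technical replicates 2 against technical replicates 1 for all genes. With that limit, the difference of Erbb2, Erbb3, Erbb4, Nrg1 and Hbegf kept its negative sign under 9 of 9 alternatives. Its size did not hold for Erbb2 and Nrg1. It was -0.0060 for Erbb2 without technical replicate 1 of passage 9, and -0.0026 for Nrg1 relative to genes of similar length. The difference of Erbb4 by passage ran from -0.57 to 0.44 without a library. At 0 to 4 reads a library, the depth did not resolve the order of Egfr, Btc and Nrg2.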
